A study of Mus musculus with 32 samples.

Results

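The comparison described here sets cold-exposed mice against mice kept at room temperature, both carrying a knockout of Pparg, the nuclear receptor on which fat cell formation depends. Its members are the 4 arrays titled as cold-exposed Pparg knockouts and the 4 titled as room temperature Pparg knockouts, 8 of the 32 arrays of the series, and every named gene on them. All animals were of the strain C57Bl/6. The room temperature group carries the labels Pparg KnockOut and RoomTemperature, and the cold group the labels Pparg KnockOut and ColdExposure. For reference, 4 arrays labelled Pparg control at each temperature were taken from the same experiment. The other 16 arrays came from cultured cells. They serve here to show where a probe can be lit and, with the mouse arrays, to choose the brightest probe of each gene. Each array measured total RNA labelled with the dye Cy3 on a 1-colour Agilent design. Cell type is given as preadipocytes for every sample. How the knockout was made, the fat depot, the age and sex of the animals, the length and temperature of the cold exposure, and whether the replicates were separate animals are not given in the sources used here. The p-values therefore speak only of the spread among these arrays, part of which may be technical.

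Brown fat burns lipid to make heat. Cold activates sympathetic nerves, noradrenaline binds beta-adrenergic receptors on brown adipocytes, cyclic AMP rises, lipid stores are broken down and the fatty acids activate uncoupling protein 1 in mitochondria. PPARG drives the genes of lipid uptake and storage in these cells, among them glycerol kinase, which lets a fat cell reuse the glycerol released by lipolysis and which the title of the series names.

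A level below is the log2 intensity of a probe minus the 75th percentile of its array, so a level of 0 lies at that percentile. A difference is the mean level of the 4 cold arrays minus that of the 4 room temperature arrays. Each gene is represented by its brightest probe, differences were tested with limma, and a gene is called where the p-value adjusted over all genes tested is under 0.05. "Rose" and "fell" are used only of called genes. Levels of different genes come from different probes and are not set against each other.

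The targeted gene went against the label. The Pparg probe read 7.5, 7.53, 7.44 and 7.37 on the room temperature arrays labelled knockout and 7.97, 7.93, 8.06 and 7.9 on the cold ones. On the control arrays it read 5.53, 5.26, 5.47 and 5.29 at room temperature and 5.99, 6.41, 5.28 and 5.67 in the cold. The arrays labelled knockout were thus higher than the control arrays, without overlap, by 2.08 at room temperature and by 2.13 in the cold (exact permutation test, p = 0.0286 each, the smallest that 4 against 4 arrays can give). The array has 1 named Pparg probe and the files do not say which part of the transcript it reads, so it may lie outside a deleted exon and checks nothing by itself. The word knockout is used below as the label has it. Within those arrays Pparg was 0.5 higher in the cold (SE 0.09, adjusted p = 0.000944), a call that was lost when the background was corrected by normexp, a model of the signal above local background (0.34, adjusted p = 0.205).

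Ucp1, which encodes uncoupling protein 1, was lower in the cold. It read 9.32, 9.39, 8.92 and 8.98 at room temperature and 8.59, 8.58, 7.96 and 7.34 in the cold, and the groups did not overlap. The difference was -1.03 (SE 0.28, adjusted p = 0.0101), and in control mice it was -1.04. Ucp1 was also lower on the knockout arrays than on the control arrays, by 1.02 at room temperature and 1.01 in the cold (exact permutation test, p = 0.0286 each). Gk, which encodes glycerol kinase, read 1.98, 2.52, 1.96 and 2.66 at room temperature and 0.89, 0.78, -1.03 and -1.13 in the cold. All 4 cold arrays lay below all 4 room temperature arrays. It fell by 2.4, a factor of 5.29 (SE 0.49, adjusted p = 0.00247), and by 2.24 in control mice. The responses of the genotypes were not called different for either gene: the difference of the differences was -0.16 for Gk (SE 0.75, adjusted p = 0.913) and 0.0 for Ucp1 (SE 0.34, adjusted p = 0.994). When the arrays of a slide were averaged, Ucp1 lost its call at the same difference of -1.03 (adjusted p = 0.0662).

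Markers of both stages were read beside the label preadipocytes. All 13 preadipocyte and fibroblast markers and all 8 markers of mature adipocytes were above background on at least 1 of the 4 knockout arrays at each temperature. Since both sets were seen, this reading cannot decide whether the label holds. Temperature coincided with slide and with scan day. The room temperature knockouts lay on slides 5 (replicates 3 and 4) and 6 (replicates 1 and 2), the cold knockouts on slides 7 (replicates 1 and 2) and 8 (replicates 3 and 4), and each of these slides also held 2 control arrays of the same temperature. Temperature, slide and scan day cannot be told apart within a genotype. The 75th percentile of the intensities was 498.5 to 603.7 on the room temperature knockout arrays, 297.1 to 316.1 on the cold ones and 277.0 to 406.2 on the control arrays, and 53.6 to 60.8% of the spots of the knockout arrays were well above background. Some arrays stood apart. Tnni2, a troponin of fast skeletal muscle, read 4.01, -1.8, -1.97 and -1.25 on the room temperature knockout arrays and -2.5, -1.96, -1.93 and 4.16 on the cold ones, so that replicate 1 at room temperature and replicate 4 in the cold were more than 5 log2 units above the rest of their group. Isg15, an interferon-stimulated gene, read 1.95, 1.88, 1.6 and 4.38 and then 1.9, 2.32, 2.34 and 2.88, with replicate 4 at room temperature above every other array, and Ifit3, another such gene, -0.18, -0.2, -0.54 and 2.24 and then -0.38, 0.74, 0.52 and 0.94. None of these was called. The counts of called genes without each array in turn ran from 8254 to 8925 in knockout mice.

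Most genes differed between the temperatures. Of 13395 genes tested in knockout mice 9049 (67.6%) were called, 5656 (42.2%) higher and 3393 (25.3%) lower in the cold, and 4418 (33.0%) were called at 2-fold or more. Counts of list members that rose or fell below are to be read beside the shares of all genes called higher and lower. With the slide as a random block 7996 genes were called, 5025 higher and 2971 lower. The 4 cold arrays did not overlap the 4 room temperature arrays for 8328 genes (62.2%), and the median difference over all genes was 0.24. Scaling the arrays to their median in place of the 75th percentile moved that median to 0.43 and gave 6710 genes higher and 2662 lower. Against the 75th percentile, the spike-in control probes of the array read higher in the cold by a median of 1.42 in knockout mice and 0.88 in control mice. The counts of higher and lower genes, and the size of each difference, are therefore relative to the 75th percentile and would move down by such amounts if the arrays were scaled on these probes. In control mice 8779 of 13139 genes (66.8%) were called, 5576 (42.4%) higher and 3203 (24.4%) lower. That split became 7198 higher and 2096 lower with median scaling.

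Most calls were shared in direction by knockout and control mice. Of 12889 genes tested in both, 6679 were called in the same direction and 1.12% were called in opposite directions. A further 1917 were called in knockout mice alone and 1855 in control mice alone, which by itself shows no difference between the genotypes. Across these genes the differences correlated at r = 0.87, a description over genes that share probes, slides and scan days. There were 240 genes at least 3 log2 units lower in the cold in both genotypes and 28 at least 3 higher.

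**Figure D1:**
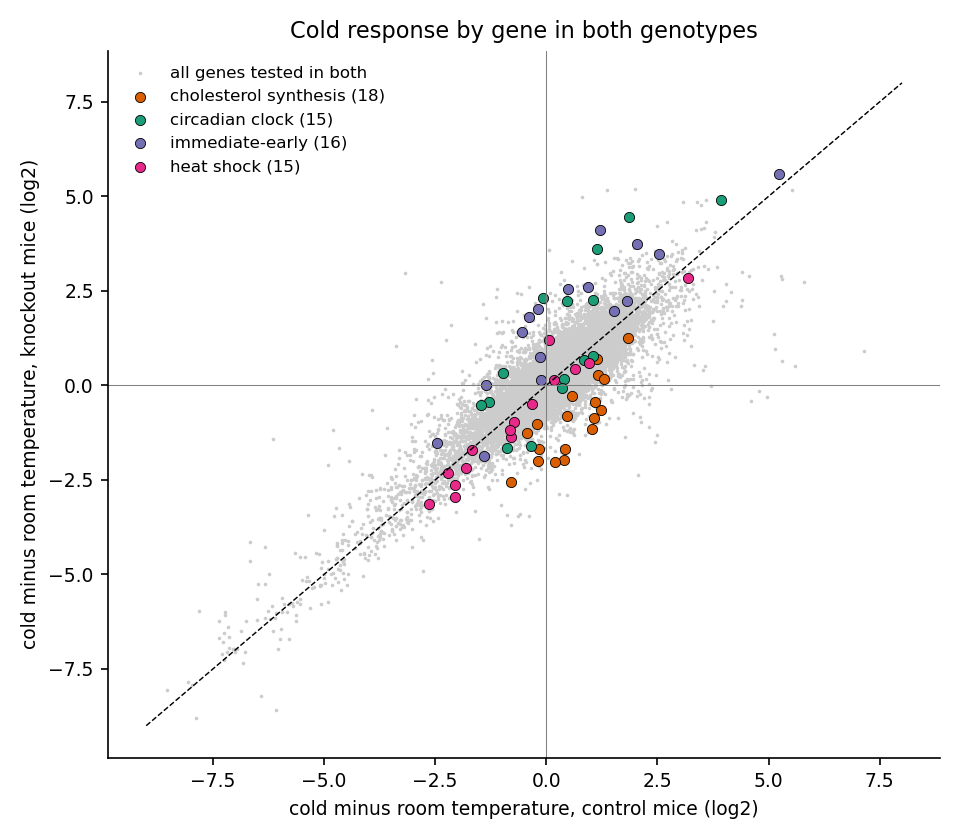
Cold minus room temperature difference (log2) of each gene tested in both genotypes, control mice on the horizontal axis and knockout mice on the vertical axis. Each grey point is a gene, the coloured points are members of gene lists described in the text, and the dashed line marks equal differences; the grey cloud follows that line at r = 0.87.

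The direct test of the difference between the genotypes subtracts the control response from the knockout response on all 16 mouse arrays, and each slide holds both genotypes. It called 1879 of 14068 genes (13.4%), 860 (6.11%) with a knockout response above that of control mice and 1019 (7.24%) below. With the slide as a fixed block it called 2718, 1260 above and 1458 below. The split leaned further to the lower side with median scaling (479 above, 1454 below) and with normexp background correction (211 above, 449 below). Averaging the arrays of a slide, which leaves 2 values a group, left 35 calls, and leaving out replicate 1 of the room temperature knockouts left 1240. A difference of the responses is given below as the knockout response minus the control response. Sharing a slide does not free it from the scaling of the arrays. The room temperature knockout arrays were brighter than the control arrays, as given above. The spike-in control probes read higher in the cold by a median of 1.42 in knockout mice and 0.88 in control mice. Scaling on these probes would therefore move the differences of the responses down.

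Probes of the same gene did not always give the same answer. Of 3453 genes with 2 or more probes tested in knockout mice, 1134 (32.8%) had every probe called in the same direction, 739 (21.4%) higher and 395 (11.4%) lower. Median scaling changed that split to 979 higher and 272 lower. For 513 (14.9%) probes of the same gene were called in opposite directions, and for 1288 (37.3%) the probes lay at least 1 log2 unit apart. For the difference of the responses the probes of a gene lay closer: 6.41% of the genes had probes at least 1 log2 unit apart and 4 of 3634 (0.11%) had probes called in opposite directions. The 185 genes (5.09%) whose probes were all called alike in that test were 80 above (2.2%) and 105 below (2.89%).

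A set of probes was lit on the room temperature mouse arrays and nowhere else. There were 254 probes well above background on all 8 room temperature mouse arrays and on none of the other 24 arrays, against 31, 0 and 16 probes with that pattern for the other 3 scan days, which also hold 8 arrays each. They include the probes that represent 68 of the tested genes, and all 68 were called lower in the cold, by a median of 4.34 in knockout mice and 4.49 in control mice. That direction is set by how the probes were picked, since none was above background on a cold array. No probe outside the set was tested for these 68 genes. For 74 other genes with such a probe another probe was tested. Of those 108 other probes, which were not picked by that pattern, 38 were lower in the cold, 35 were higher, and their median difference was -0.01. The genes Ccr2, Pex14, Dbt and Klf15, which belong to lists below, were each read by such a room temperature probe.

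**Figure D2:**
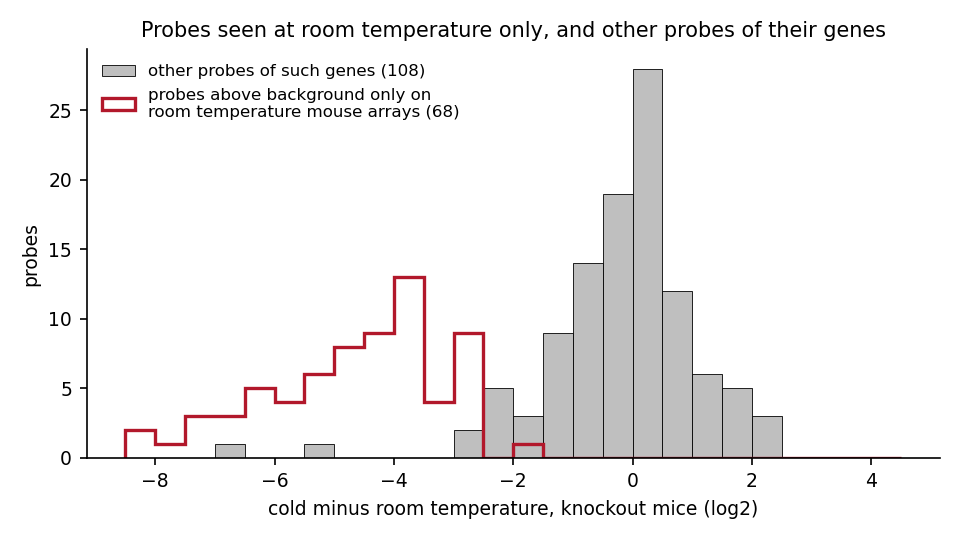
Histogram of the cold minus room temperature difference (log2) in knockout mice. The outlined bars are the probes of 68 tested genes picked for being above background only on the room temperature mouse arrays. That choice sets their direction, and their median is -4.34. The filled bars, not picked that way, are other tested probes of 74 different genes that also have such a probe, and they centre on -0.01.

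Arrays of the same group also differed between slides. Among cold knockout arrays 731 genes differed by at least 1 log2 unit between slide 8 and slide 7, 364 higher on slide 8 and 367 lower (5.46% of the genes). Among room temperature knockout arrays 110 were higher and 104 lower on slide 6 than on slide 5 (1.6%). Of the 731 genes 590 had the same direction between those slides in cold control mice, 227 of them by at least 1 log2 unit. Where a gene below splits by slide, its values are given array by array.

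Several genes of the circadian clock separated the temperatures on every array, as did 62.2% of all genes tested. The clock is a loop in which CLOCK and ARNTL activate the Per, Cry and Nr1d genes through E-boxes, the products of these genes close the loop, and the factors DBP, TEF and HLF act on D-boxes. Of the 17 clock genes tested 7 rose and 5 fell in the cold, beside 42.2% and 25.3% of all genes, with a median difference of 0.32 against 0.24 over all genes. Nr1d1, the repressor of Arntl, read -3.23, -3.44, -2.72 and -3.24 at room temperature and 1.27, 1.86, 2.09 and 1.75 in the cold. It rose by 4.9 (SE 0.21, adjusted p = 3.49e-07), 29.8-fold, and no cold array came near the room temperature range. The largest difference of the list in control mice was 3.93. For Nr1d1 the difference of the responses was 0.97. That call was lost with normexp (0.33, adjusted p = 0.583) and with median scaling (0.81, adjusted p = 0.0879). Most omissions of a single array also ended it, at an adjusted p of 0.0557 to 0.0952.

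Dbp and Tef, of the D-box factors, rose further in knockout than in control mice. Dbp read 2.07, 1.8, 1.59 and 2.39 at room temperature and 6.25, 6.35, 6.63 and 6.47 in the cold, a rise of 4.46 (SE 0.18, adjusted p = 2.39e-07) with 4.26 by its other probe. In control mice it read 4.49, 3.52, 4.0 and 3.67 at room temperature and 6.49, 6.13, 5.46 and 5.0 in the cold, a rise of 1.85. The cold levels of the genotypes overlapped, while the room temperature levels of the knockout mice lay below all of those of control mice. The difference of the responses was 2.62 (SE 0.41, adjusted p = 0.00164) and 2.61 by the other probe. Nr1d2, the sister gene of Nr1d1, followed the same pattern. It read -1.84, -2.5, -1.79 and -1.44 at room temperature and 0.23, 0.34, 0.64 and 0.4 in the cold in knockout mice, a rise of 2.29 (SE 0.21, adjusted p = 2.44e-05). In control mice it read 0.24, -0.27, 0.42 and 0.23 and 0.35, 0.34, 0.0 and -0.38, ranges that overlap, and the difference of the responses was 2.37 (SE 0.31, adjusted p = 0.000526).

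Per3, a period gene, read -4.33, -4.55, -4.19 and -3.97 at room temperature, where 2 of 4 arrays were above background, and -0.98, -0.25, -0.55 and -0.81 in the cold. It rose by 3.61 (SE 0.18, adjusted p = 9.12e-07) and the difference of the responses was 2.47 (SE 0.41, adjusted p = 0.00206), which was not called with normexp correction (1.25, adjusted p = 0.0809). Tef rose by 2.23 (SE 0.11, adjusted p = 7.45e-07), with a difference of the responses of 1.77 (SE 0.3, adjusted p = 0.0024). The activators moved the other way. Arntl read -0.51, -0.29, 0.05 and -0.41 at room temperature and -2.23, -1.94, -1.6 and -1.77 in the cold and fell by 1.59 (SE 0.17, adjusted p = 5.6e-05). Clock fell by 1.65 (SE 0.12, adjusted p = 5.45e-06). Their falls exceeded those of control mice by 1.25 and 0.77 (adjusted p = 0.0156 and 0.0128), calls that were lost with normexp (-0.65 and -0.33, adjusted p = 0.0991 and 0.39). Cry1, which encodes the main repressor of CLOCK and ARNTL, was above background on all room temperature arrays and on none of the cold ones, at least 2.94-fold lower; with normexp its difference was -0.37 and not called (adjusted p = 0.509).

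In all, the difference of the responses was called above 0 for 5 clock genes and below 0 for 2 of 17, against 6.11% and 7.24% of all genes, with a median of 0.85 against -0.01. Under normexp 3 of the 5 were called and neither of the 2 below 0. With the arrays of a slide averaged none was, although the size of the differences did not change: Dbp stayed at 2.62 with an adjusted p of 0.0899. The hour at which tissue was taken is not given in the sources used here, and its part in the clock result was not tested. Summed levels of the markers of other cell types are given with the marker lists below.

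**Figure D3:**
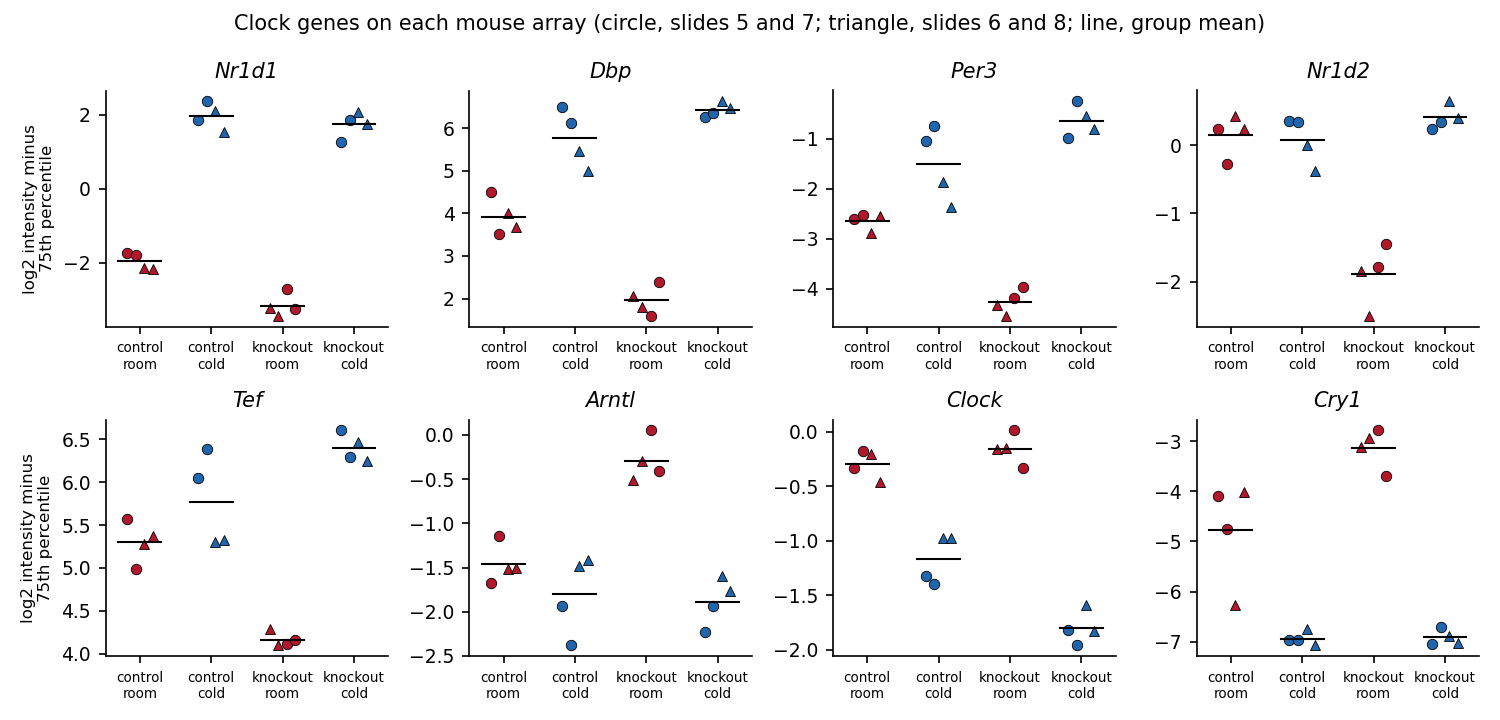
Level of 8 clock genes on each of the 16 mouse arrays (log2 intensity minus the 75th percentile of the array), by genotype and temperature. Points are arrays, red marks room temperature and blue cold, the shape marks the slide and lines are group means; Dbp, Per3, Nr1d2 and Tef of the room temperature knockouts lie below every control array at room temperature, and Arntl and Clock fall in the cold.

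The promoters of 2 clock genes show the elements through which the loop is known to run. They are the 250 bases before the start site in RefSeq annotation of GRCm38.p6, written 5′ to 3′ on the strand of the gene. Per3 lies at chr4:151044666-151044915 on the minus strand, and the capitals mark 2 copies of the D-box TTATGTAA. Ciart, a repressor of the clock, lies at chr3:95882229-95882478 on the minus strand, with 3 copies of the E-box CACGTG in capitals.
Per3: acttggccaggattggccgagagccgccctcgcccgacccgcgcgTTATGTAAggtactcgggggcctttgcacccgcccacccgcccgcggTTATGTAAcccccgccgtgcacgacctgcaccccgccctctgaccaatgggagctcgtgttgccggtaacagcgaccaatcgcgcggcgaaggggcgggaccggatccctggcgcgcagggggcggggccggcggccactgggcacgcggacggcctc
Ciart: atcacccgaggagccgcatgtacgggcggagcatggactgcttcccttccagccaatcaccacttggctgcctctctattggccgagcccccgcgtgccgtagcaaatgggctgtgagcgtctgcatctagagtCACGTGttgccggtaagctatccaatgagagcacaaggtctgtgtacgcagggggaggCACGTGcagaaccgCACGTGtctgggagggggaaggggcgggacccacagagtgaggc
Both strands were searched in 32851 promoters of this length. The D-box letters occurred in 0.819% of them and in 1 of the 15 clock genes with a promoter sequence, and the E-box letters in 6.02% of them and in 5 of those 15. Such a match is a description of letters and not of binding. Per3 rose, as above, while Ciart was above background on every room temperature array and on no cold array, at least 1.63-fold lower, and with normexp its difference was 0.25 and not called.

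Immediate-early genes switch on within minutes of a signal such as cyclic AMP. By their median they were higher in the cold, but to a very different degree on the 2 cold slides. Of 18 tested 9 rose and 1 fell, beside 42.2% and 25.3% of all genes. Their median difference was 2.12 against 0.24 over all genes. Nr4a1, an orphan nuclear receptor induced by adrenergic signals, read 0.84, 0.91, 1.32 and 1.8 at room temperature and 4.56, 5.16, 8.85 and 8.63 in the cold. It rose by 5.58 (SE 0.97, adjusted p = 0.000928), and the cold arrays of slide 8 (replicates 3 and 4) stood more than 3 log2 units above those of slide 7. In control mice it rose by 5.23, from -0.59, -0.54, 1.62 and 1.08 to 2.5, 5.57, 7.57 and 6.87. Its relative Nr4a3 was on no room temperature array above background and read -2.36, -2.73, -0.38 and -0.44 in the cold, at least 11.6-fold higher.

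Junb, which encodes a subunit of the factor AP-1, read -4.27, -5.35, -4.6 and -4.73 at room temperature, where 1 of 4 arrays was above background, and -3.55, -1.76, -0.03 and 0.28 in the cold, a rise of 3.47 (SE 0.77, adjusted p = 0.00369). Jun, its partner gene, read 2.55, 2.36, 3.05 and 3.19 and then 4.36, 4.2, 5.04 and 5.65, a rise of 2.03 (SE 0.34, adjusted p = 0.000708) without overlap. In control mice Jun differed by -0.18, and the difference of the responses was 2.2 (SE 0.53, adjusted p = 0.0162), a call lost with normexp (1.99, adjusted p = 0.0633). Fosb, another AP-1 gene, read -2.86, -2.15, 3.11 and 3.37 in the cold against -3.55, -3.56, -3.73 and -4.07 at room temperature (difference 4.1, SE 1.4, adjusted p = 0.029). Without any 1 room temperature knockout array, or without cold replicate 3 or 4, its adjusted p was 0.054 to 0.0709. Egr1 read -2.72, 0.86, 4.65 and 4.19 in the cold against -1.76, -2.55, -2.19 and -1.5 at room temperature, so that 1 cold array lay below the room temperature range (difference 3.74, SE 1.45, adjusted p = 0.0465). Leaving out any 1 room temperature array, or cold replicate 2, 3 or 4, ended its call at an adjusted p of 0.0622 to 0.117.

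Fos, the founding gene of AP-1, was not called at a difference of 4.25 (SE 1.82, adjusted p = 0.0663), and its cold arrays ran from -6.44 to 2.83. It was called without cold replicate 1 (6.3, adjusted p = 0.000162), with normexp (3.31, adjusted p = 0.00555) and in the fit of all 16 arrays (adjusted p = 0.0373). The count of immediate-early genes called higher was 5 without room temperature replicate 1 or 2, without cold replicate 3 or 4, and with the arrays of a slide averaged. The difference of the responses was called above 0 for 3 of 18 and below 0 for none (median 1.51), and for 1 of 18 with normexp or quantile normalization. The excess of knockout over control mice had a median of 0.83 on slide 7 and 2.1 on slide 8, against 0.29 and -0.1 on the room temperature slides. Handling of the animals before tissue was taken is not described in the sources used here, and its part in this was not tested.

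The promoter of Nr4a1, at chr15:101266596-101266845 on the plus strand, is shown because the gene had the largest difference of the list. The capitals mark 4 copies of the core of the cyclic AMP response element, TGACG, here all as its reverse complement.
Nr4a1: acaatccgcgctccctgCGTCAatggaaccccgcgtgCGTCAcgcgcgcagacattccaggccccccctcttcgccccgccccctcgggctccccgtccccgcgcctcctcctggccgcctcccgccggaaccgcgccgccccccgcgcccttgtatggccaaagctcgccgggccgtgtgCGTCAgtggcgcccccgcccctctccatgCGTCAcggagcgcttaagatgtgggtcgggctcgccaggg
These letters occurred in 17.8% of all promoters searched and in 11 of the 16 immediate-early genes with a sequence.

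Upstream of these genes, the adrenergic and cyclic AMP list had 10 members that rose and 3 that fell of 20 tested (median 0.4). Of all genes 42.2% rose and 25.3% fell (median 0.24). Adcy5, an adenylyl cyclase that makes cyclic AMP, rose by 3.01 (SE 0.27, adjusted p = 1.98e-05), and its 3 probes ran from 1.7 to 3.01. Rgs2, which dampens signals of G proteins, rose by 2.3 (SE 0.42, adjusted p = 0.00125), and Adcy6 by 1.82 (SE 0.26, adjusted p = 0.000262). Adra1a, an alpha-1 receptor, fell by 1.12 (SE 0.26, adjusted p = 0.00487), a call lost with normexp (-0.67, adjusted p = 0.0583). The receptors typical of brown fat were not called. Adrb3 read 4.54, 4.47, 4.22 and 4.14 at room temperature and 3.45, 3.82, 4.42 and 4.7 in the cold, and Adrb1 1.22, 1.46, 1.4 and 1.58 and then 0.42, 1.17, 2.97 and 3.19, so that both groups of values overlapped. In this list the difference of the responses was called above 0 for 1 of 20 and below 0 for none.

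Most genes of the heat shock list were lower in the cold in both genotypes. Of 15 tested members of a list of chaperones and of RNA-binding proteins that respond to cold, 4 rose and 10 fell (median -1.19), and in control mice 3 rose and 9 fell (median -0.8), beside 42.4% and 24.4% of all genes there. Hsp90aa1, the inducible form of the chaperone HSP90, read 4.88, 4.96, 5.02 and 5.06 at room temperature and 1.74, 1.76, 2.08 and 1.81 in the cold. It fell by 3.13 (SE 0.11, adjusted p = 9.43e-08), with a spread within either group far below that gap. Hsph1, a co-chaperone of HSP70, fell by 2.94 (SE 0.2, adjusted p = 4.3e-06) and by 3.04 by its other probe. Hspb1, a small heat shock protein, read 6.71, 6.54, 6.62 and 6.5 and then 4.21, 3.77, 4.06 and 3.76, a fall by 2.64 (SE 0.13, adjusted p = 6.4e-07). Serpinh1, the collagen chaperone, fell by 2.33 (SE 0.13, adjusted p = 1.45e-06).

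Among the members that rose were RNA-binding proteins and a co-chaperone. Cirbp, an RNA-binding protein that is induced by mild cold, read -0.08, 0.39, 0.03 and 0.11 at room temperature and 3.0, 2.35, 3.46 and 3.03 in the cold, a rise of 2.84 (SE 0.22, adjusted p = 9.56e-06). It rose by 3.19 in control mice. Its relative Rbm3 rose by 0.44 (SE 0.12, adjusted p = 0.0115), but its 3 probes ran from -0.7 to 0.73 and the mean over probes was not called (0.16). Bag3, a co-chaperone of protein breakdown, read 3.46, 3.26, 3.16 and 3.22 and then 4.92, 4.22, 4.47 and 4.29, a rise of 1.2 (SE 0.16, adjusted p = 0.000216). Control mice differed by 0.06, so that the responses differed by 1.13 (SE 0.23, adjusted p = 0.00663). That test called 1 member of the list above and 1 below.

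Hspe1 and Hspd1 encode the mitochondrial chaperonins HSP10 and HSP60 and share a divergent promoter. Hspe1 fell by 2.19 (SE 0.1, adjusted p = 6.05e-07) and Hspd1 by 1.19 (SE 0.11, adjusted p = 2.45e-05). The 3 probes of Hspe1 ran from -8.15 to -2.19. The one at -8.15 is among those lit only on the room temperature mouse arrays, and the other 2 gave -2.19 and -5.05. The Hspe1 side is shown because Hspe1 and Hspd1 were the members with the letters of the heat shock element. These are GAA, TTC and GAA with any 2 bases between each. The Hspe1 promoter lies at chr1:55087898-55088147 on the plus strand, and the capitals mark 2 overlapping copies.
Hspe1: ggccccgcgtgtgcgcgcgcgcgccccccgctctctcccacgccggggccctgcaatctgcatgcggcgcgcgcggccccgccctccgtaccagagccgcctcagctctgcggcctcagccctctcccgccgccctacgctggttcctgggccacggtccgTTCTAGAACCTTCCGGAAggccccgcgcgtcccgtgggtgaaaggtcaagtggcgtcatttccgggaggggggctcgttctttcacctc
The element occurred in 0.466% of all promoters searched and in these 2 of the 12 list members with a sequence.

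Genes of cholesterol synthesis fell in the cold in knockout mice, and their response differed from that of control mice. Of 19 tested genes of cholesterol synthesis and its control by SREBP2, 2 rose and 12 fell, with a median difference of -1.02. In control mice 8 rose and none fell of 18 (median 0.53). The difference of the responses was called below 0 for 13 of 19 and above 0 for none (median -1.52), against 7.24% and 6.11% of all genes. Sqle, squalene epoxidase, read 2.98, 2.97, 2.91 and 2.91 at room temperature and 1.01, 0.71, 0.75 and 1.19 in the cold, a fall by 2.03 (SE 0.12, adjusted p = 2.26e-06). Control arrays read 2.52, 2.48, 1.84 and 1.56 at room temperature and 2.23, 1.08, 2.55 and 3.35 in the cold, ranges that overlap. Between the genotypes the responses differed by -2.23 (SE 0.5, adjusted p = 0.0116). All 4 room temperature knockout arrays lay above all 4 room temperature control arrays, and in the cold the genotypes overlapped.

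Enzymes before and after squalene gave like values. Idi1, an early isomerase of the pathway, read 3.8, 3.32, 3.24 and 3.19 and then 1.35, 1.18, 1.56 and 1.58, a fall by 1.97 (SE 0.16, adjusted p = 1.21e-05), with a difference of the responses of -2.36 (SE 0.43, adjusted p = 0.00411). Msmo1, a late methyl sterol oxidase, fell by 2.0 (SE 0.13, adjusted p = 3.43e-06), with a difference of the responses of -1.81 (SE 0.38, adjusted p = 0.00884). Cyp51, lanosterol demethylase, fell by 2.55 (SE 0.25, adjusted p = 3.62e-05), while its difference of the responses of -1.76 was not called (adjusted p = 0.0516). Insig1, a feedback gene of SREBP2, read 2.77, 2.11, 1.85 and 2.25 and then 1.01, 0.55, 1.32 and 1.43, a fall by 1.16 (SE 0.24, adjusted p = 0.00271). It rose by 1.03 in control mice, and the difference of the responses was -2.2 (SE 0.47, adjusted p = 0.00944).

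The 2 members that rose were Fdft1 and Insig2. Fdft1, squalene synthase, rose by 1.24 (SE 0.18, adjusted p = 0.000311) and Insig2 by 0.69 (SE 0.1, adjusted p = 0.000333), but another probe of each pointed down, at -0.21 and -1.66. Averaged over its probes Insig2 reversed to -0.48 and was called lower.

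Hmgcs1, which makes the precursor of mevalonate, was the list member with the letters of a sterol regulatory element, TCACNCCAC, in capitals in its promoter at chr13:119690101-119690350 on the plus strand.
Hmgcs1: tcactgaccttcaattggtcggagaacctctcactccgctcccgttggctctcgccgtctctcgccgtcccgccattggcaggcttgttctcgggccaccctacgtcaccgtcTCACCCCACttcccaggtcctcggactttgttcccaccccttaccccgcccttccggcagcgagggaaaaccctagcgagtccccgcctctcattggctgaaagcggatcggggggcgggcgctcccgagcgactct
The element occurred in 1.05% of all promoters searched and in 1 of the 14 members with a sequence. Hmgcs1 read 5.03, 4.97, 4.7 and 4.67 at room temperature and 4.11, 3.89, 3.6 and 3.7 in the cold, a fall by 1.02 (SE 0.14, adjusted p = 0.000277). Its difference of the responses of -0.81 (adjusted p = 0.0227) was -0.75 and not called without room temperature knockout replicate 1 (adjusted p = 0.0518).

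By slide, the excess of knockout over control mice in the sterol list had medians of -0.08 and 0.57 on the room temperature slides 5 and 6 and of -0.77 and -1.39 on the cold slides 7 and 8. Both genotypes lay on each slide. With the arrays of a slide averaged none of the 13 differences of the responses was called. Leaving out 1 array at a time gave 10 to 17 called below 0.

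**Figure D4:**
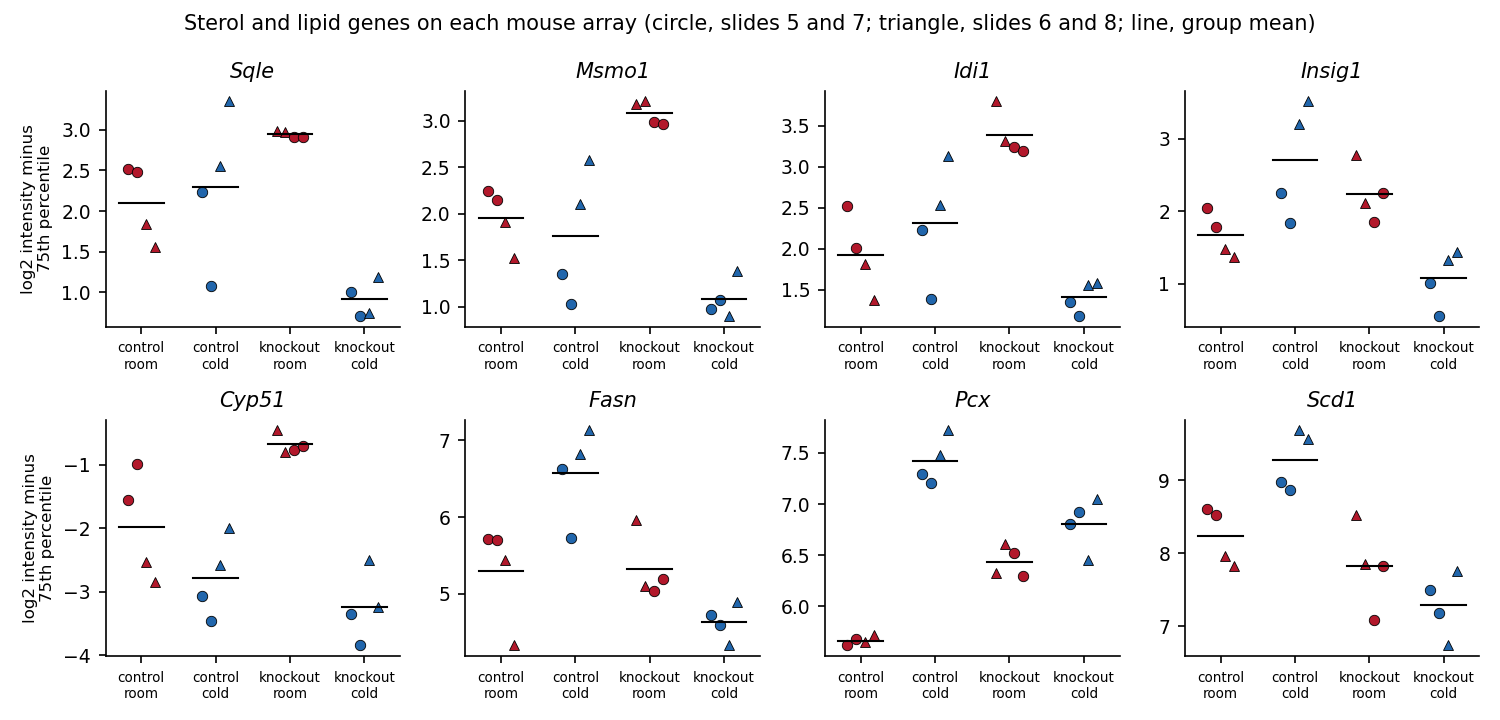
Level of 8 genes of sterol and fatty acid metabolism on each of the 16 mouse arrays (log2 intensity minus the 75th percentile of the array). Points are arrays, red marks room temperature and blue cold, the shape marks the slide and lines are group means; Sqle, Msmo1 and Idi1 of the cold knockout arrays lie below every room temperature knockout array and do not separate by temperature in control mice.

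Fatty acid synthesis showed a related split. Of 16 lipogenic genes 5 rose and 5 fell in knockout mice (median -0.17, and 0.02 with median scaling; 1 rose and 4 fell with normexp), whereas 10 rose and 2 fell in control mice (median 0.96). The difference of the responses was called below 0 for 5 of 16 and above 0 for none (median -1.03). That count was 3 without room temperature knockout replicate 1 or 2, without cold knockout replicate 3, and without control replicate 3 or 4 of either temperature, and it was 10 without cold control replicate 2. With normexp it was 3 and with averaged slides 0. Fasn, fatty acid synthase, read 5.96, 5.1, 5.04 and 5.2 at room temperature and 4.73, 4.6, 4.33 and 4.89 in the cold. It fell by 0.69 (SE 0.22, adjusted p = 0.021), a call lost without cold replicate 3 (-0.59, adjusted p = 0.0536), with the slide as a random block (adjusted p = 0.0683) and with quantile or median scaling. It rose by 1.28 in control mice, where it read 5.72, 5.7, 5.44 and 4.34 and then 6.63, 5.73, 6.82 and 7.13, and the difference of the responses was -1.97 (SE 0.47, adjusted p = 0.0158).

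Pcx, pyruvate carboxylase, supplies carbon for lipid synthesis. It read 6.33, 6.61, 6.52 and 6.3 and then 6.81, 6.92, 6.45 and 7.05 in knockout mice, groups that overlap (difference 0.37, SE 0.15, adjusted p = 0.0493). That call was lost with normexp (0.24, adjusted p = 0.42), quantile normalization, averaged slides, the slide as a random block (adjusted p = 0.138) or the replicate number as a block (adjusted p = 0.0824), and without any 1 knockout array except cold replicate 3. It rose by 1.76 in control mice, with a difference of the responses of -1.39 (SE 0.19, adjusted p = 0.000724). Scd1, the stearoyl-CoA desaturase, read 8.52, 7.85, 7.09 and 7.82 and then 7.5, 7.18, 6.74 and 7.76 and was not called. Elovl5, an elongase of polyunsaturated fatty acids, fell by 2.21 (SE 0.16, adjusted p = 5.65e-06), and Fads1, a desaturase of the same path, rose by 1.26 (SE 0.24, adjusted p = 0.00163). Srebf1, the gene of the factor that drives lipogenesis, fell by 0.77 (SE 0.18, adjusted p = 0.00463).

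Genes that free and hold stored fat changed in both directions. Of 14 genes of lipolysis and of the lipid droplet coat 2 rose and 7 fell (median -0.32), while 6 rose and 2 fell in control mice (median 0.12). With median scaling 4 rose and 4 fell in knockout mice, and with quantile normalization 3 rose and 4 fell. Pnpla2, adipose triglyceride lipase, read 7.48, 7.83, 7.53 and 7.17 at room temperature and 5.23, 5.19, 4.72 and 4.61 in the cold, a fall by 2.56 (SE 0.19, adjusted p = 6.92e-06). It fell by 1.72 in control mice. Plin2, a coat protein of lipid droplets, read 9.04, 8.93, 8.77 and 8.82 and then 7.32, 7.12, 6.41 and 6.63, a fall by 2.02 (SE 0.2, adjusted p = 3.46e-05). It differed by -0.45 in control mice, and the difference of the responses was -1.56 (SE 0.37, adjusted p = 0.0146).

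Lipe, hormone-sensitive lipase, read 1.48, 1.45, 1.08 and 0.99 and then 1.98, 1.82, 1.15 and 2.1 and was not called in knockout mice. It rose by 1.76 in control mice, with a difference of the responses of -1.25 (SE 0.26, adjusted p = 0.00855). Plin4 read 5.25, 5.11, 5.09 and 5.16 at room temperature and 7.66, 7.56, 6.95 and 7.65 in the cold, a rise of 2.3 (SE 0.17, adjusted p = 5.7e-06). In this list the difference of the responses was called below 0 for 5 of 15 and above 0 for none.

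Of 16 genes of glycerol phosphate and triglyceride synthesis 1 rose and 6 fell, with a median of 0.12 that was -0.07 with quantile normalization. With quantile normalization, and likewise with median scaling, 5 rose and 6 fell. Pck1, the enzyme of glyceroneogenesis, read 2.02, 3.13, 3.11 and 2.34 at room temperature and 6.21, 5.05, 4.64 and 5.23 in the cold, a rise of 2.63 (SE 0.37, adjusted p = 0.000282). Beside Gk, Gpd2, the mitochondrial glycerol phosphate dehydrogenase, fell by 1.3 (SE 0.23, adjusted p = 0.00109). Agpat3, an acyltransferase, read 6.83, 6.78, 6.9 and 6.8 and then 6.08, 5.84, 5.4 and 5.24, a fall by 1.19 (SE 0.18, adjusted p = 0.000463). It differed by -0.19 in control mice, and the difference of the responses was -1.0 (SE 0.25, adjusted p = 0.0194).

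Genes of fat uptake mostly fell. Of 16 genes 3 rose and 10 fell in knockout mice (median -0.67) and 1 rose and 10 fell in control mice (median -0.9). Of all genes 42.2% rose and 25.3% fell in knockout mice, and 42.4% and 24.4% in control mice. Cd36, the fatty acid transporter, read 5.14, 5.3, 5.33 and 5.04 at room temperature and 3.7, 3.33, 3.77 and 3.54 in the cold, a fall by 1.61 (SE 0.13, adjusted p = 9.45e-06), and fell by 1.76 in control mice. Acsl5, which activates fatty acids, fell by 2.08 (SE 0.39, adjusted p = 0.00136).

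Of 23 genes of mitochondrial fatty acid oxidation 7 rose and 9 fell (median -0.31), while 10 rose and 4 fell in control mice (median 0.23). The knockout counts were 7 and 6 with median scaling and 3 and 11 with normexp. Differences of the responses were called below 0 for 6 of 23 and above 0 for none. Hadha, the alpha subunit of the trifunctional protein, read 4.23, 4.19, 4.02 and 4.21 and then 4.96, 4.63, 3.73 and 3.84 and was not called. It rose by 1.54 in control mice, with a difference of the responses of -1.42 (SE 0.31, adjusted p = 0.0107).

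Acads, the short-chain dehydrogenase, rose in knockout mice by 1.23 (SE 0.16, adjusted p = 0.000172) and in control mice by 2.16, and the responses differed by -0.92 (SE 0.22, adjusted p = 0.0161). Acadvl, the very-long-chain dehydrogenase, rose alike in both, by 0.91 (SE 0.11, adjusted p = 0.000105) and 0.9. Acot2, a mitochondrial thioesterase and a known PPAR target, fell by 1.65 (SE 0.31, adjusted p = 0.00142).

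Peroxisomal genes numbered 5 that rose and 8 that fell of 22 (median -0.22), and 6 and 4 with median scaling. Of 18 genes that break down branched-chain amino acids 11 rose and 2 fell (median 0.52), and 12 rose and 4 fell in control mice (median 0.86). Ivd, isovaleryl-CoA dehydrogenase, rose by 1.73 (SE 0.15, adjusted p = 1.61e-05), and Bcat2, the mitochondrial aminotransferase, by 1.33 (SE 0.3, adjusted p = 0.00397).

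The list of thermogenic and brown adipocyte genes leaned to lower levels in the cold. Of 21 tested 3 rose and 10 fell, with a median of -0.08 that was 0.11 with median scaling, and in control mice 4 rose and 9 fell (median -0.74). Elovl3, an elongase that marks active brown fat, read 1.35, 1.66, 0.8 and 1.59 at room temperature and -2.17, -4.06, -6.62 and -6.62 in the cold, where 2 of 4 arrays were above background (difference -6.22, SE 0.93, adjusted p = 0.000386). Prdm16, the regulator of brown fat identity, fell by 1.92 (SE 0.33, adjusted p = 0.000846). Dio2, the deiodinase that makes active thyroid hormone, read 3.71, 4.28, 4.35 and 4.34 and then 3.36, 2.03, 3.17 and 3.05, a fall by 1.26 (SE 0.29, adjusted p = 0.00457).

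Irf4, a factor of the cold response of fat, read -3.19, -1.12, -1.07 and -1.16 at room temperature and 0.95, 0.34, 5.03 and 4.42 in the cold. It rose by 4.32 (SE 1.09, adjusted p = 0.00728), and the cold arrays of slide 8 stood more than 3 log2 units above those of slide 7. With averaged slides its adjusted p was 0.0523. Ppargc1a, the coactivator of mitochondrial biogenesis, split the other way: it read 1.79, 1.87, 2.34 and 1.92 at room temperature and 5.8, 3.73, 2.1 and 2.14 in the cold, high on slide 7 and within the room temperature range on slide 8, and was not called. Cidea read 9.08, 8.65, 8.51 and 8.8 and then 9.2, 9.02, 8.43 and 8.07, and Cox8b 8.2, 8.54, 8.46 and 8.16 and then 8.87, 8.9, 8.24 and 8.18, both with overlap and without a call. A difference of the responses was called for 2 of the 21, both above 0, but with median scaling for none above and 1 below.

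Of 30 genes of the respiratory chain 12 rose and 15 fell, with a median of -0.16 that was 0.03 with median scaling, where 13 rose and 10 fell. Of 25 genes of pyruvate dehydrogenase and the TCA cycle 8 rose and 7 fell, and of 24 of glycolysis 7 rose and 4 fell. The glycolysis counts turned to 1 and 5 with normexp and 5 and 7 with quantile normalization, and were 8 and 1 with median scaling. Of 17 genes of secreted brown fat factors 9 rose and 2 fell (median 0.54), beside 42.2% and 25.3% of all genes, and 10 rose and 3 fell in control mice. Cfd, the adipsin gene, read 6.19, 6.5, 6.2 and 6.22 at room temperature and 8.05, 8.69, 8.76 and 9.5 in the cold, a rise of 2.47 (SE 0.27, adjusted p = 5.82e-05). Retn, the gene of resistin, rose by 3.04 (SE 0.31, adjusted p = 4.12e-05) with 2.6 by its other probe, and Angptl4, an inhibitor of lipoprotein lipase and a PPAR target, by 1.64 (SE 0.17, adjusted p = 3.99e-05). Fgf21, a hormone that brown fat can release, read 2.35, 1.98, 1.64 and 1.28 at room temperature and was above background on no cold array, at least 90.9-fold lower. Bmp8b, a signal of thermogenic fat, fell by 2.34 (SE 0.2, adjusted p = 1.51e-05). Among transcription factors of fat cell formation 7 rose and 3 fell of 16, and 3 and 3 with normexp. Cebpa, the partner of PPARG, rose by 0.84 (SE 0.19, adjusted p = 0.00405; 0.0507 with averaged slides), and Rxrg, a receptor that pairs with it, by 0.99 (SE 0.16, adjusted p = 0.000594). Adipoq, the adiponectin gene, rose by 1.5 (SE 0.3, adjusted p = 0.00196).

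Most matrix genes rose in the knockout mice. Of 21 collagens and matrix proteins 14 rose and 2 fell (median 0.72), and in control mice 6 rose and 6 fell (median 0.04). Of all genes 42.2% rose and 25.3% fell in knockout mice. Fbn1, fibrillin-1, read -1.88, -2.23, -2.58 and -1.45 at room temperature and -0.11, 0.1, 0.24 and 0.84 in the cold, a rise of 2.3 (SE 0.28, adjusted p = 0.000106). Thbs2, a thrombospondin, rose by 2.68 (SE 0.52, adjusted p = 0.00176), and Col6a2, a chain of collagen VI, by 1.76 (SE 0.28, adjusted p = 0.00062). Postn, periostin, read 1.87, 1.81, 2.1 and 2.15 and then -0.94, -1.08, -0.6 and -1.16, a fall by 2.93 (SE 0.15, adjusted p = 8.47e-07). A difference of the responses was called above 0 for 4 of 21 and below 0 for none (median 0.79), but for 1 with median scaling and for none with normexp. The count that rose was 9 without room temperature replicate 1 or with averaged slides, and 8 with normexp.

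Markers of preadipocytes and fibroblasts rose beside the matrix genes. Of 13 tested 8 rose and none fell (median 0.99), beside 42.2% and 25.3% of all genes. In control mice 4 rose and 4 fell (median 0.24). Pi16, which marks fibroblast progenitors, read 2.14, 2.36, 1.87 and 2.81 at room temperature and 4.68, 5.2, 5.27 and 5.56 in the cold, a rise of 2.88 (SE 0.24, adjusted p = 1.3e-05). Dlk1, the preadipocyte factor, rose by 1.82 (SE 0.26, adjusted p = 0.000273) and by 2.06 on its other probe. Mfap5, a microfibril protein, read 0.69, 0.46, 0.07 and 0.56 and then 1.61, 1.86, 1.82 and 2.48, a rise of 1.5 (SE 0.21, adjusted p = 0.000253) against 0.24 in control mice, and the responses differed by 1.26 (SE 0.28, adjusted p = 0.0104). Other markers of the list were not called. Ly6a read 3.02, 3.21, 2.66 and 3.8 and then 3.04, 3.18, 3.22 and 3.28, and Col1a1 2.9, 3.33, 3.12 and 3.75 and then 3.36, 3.61, 3.03 and 3.56, all with overlap. The summed level of the list, log2 of the sum of its markers' linear levels, was 5.18 to 5.94 at room temperature and 6.21 to 6.89 in the cold. Every marker was above background on at least 1 array of each of these groups. The part of a change in cell makeup in the matrix result was not tested, and in RNA of whole samples a change in the share of a cell type and a change of RNA per cell cannot be told apart.

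Markers of other cells were measured beside them. The summed level of the 8 adipocyte markers was 10.05 to 10.27 at room temperature and 9.76 to 10.13 in the cold, ranges that overlap, and 1 rose and 3 fell. Of 10 endothelial markers 5 rose and 3 fell, beside 42.2% and 25.3% of all genes. Their summed level was 4.96 to 5.11 and then 5.22 to 5.89. Of 11 macrophage markers 5 rose and 2 fell, with summed levels of 4.76 to 4.99 and 4.71 to 5.51; Csf1r, the receptor of their growth factor, rose by 1.35 (SE 0.18, adjusted p = 0.000195). Of 6 red blood cell genes 5 rose and none fell (1 rose with normexp), and their summed level in the cold was 10.19 to 10.95, above a room temperature range that starts at 9.35. No marker of muscle was called, although 1 was with median scaling. Mb, the myoglobin gene, read 6.82, 7.04, 6.6 and 6.19 and then 7.02, 7.54, 6.77 and 7.01 on the knockout arrays, against 2.08, -1.15, -1.46 and 0.68 and then 3.25, 3.54, -0.58 and -1.03 on the control arrays. Without Mb the summed level of the other 11 markers was 5.68 on room temperature knockout replicate 1 and 2.26 to 2.85 on the other 3, then 5.79 on cold knockout replicate 4 and 2.98 to 3.16 on the other 3. It was 3.44 to 3.75 on the room temperature controls. On cold control replicates 1 to 4 it was 8.34, 8.74, 4.11 and 4.69. Muscle markers other than Mb were thus high on 1 knockout array of each temperature, and highest on cold control replicates 1 and 2, both on slide 7. Those 2 arrays enter every difference of the responses. Knockout minus control on slide 7 was -7.02 for Cox6a2 and -5.56 for Fitm1, of the respiratory and lipid droplet lists, against 1.2 and 0.45 on slide 8. The part of muscle in these differences was not tested.

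**Figure D5:**
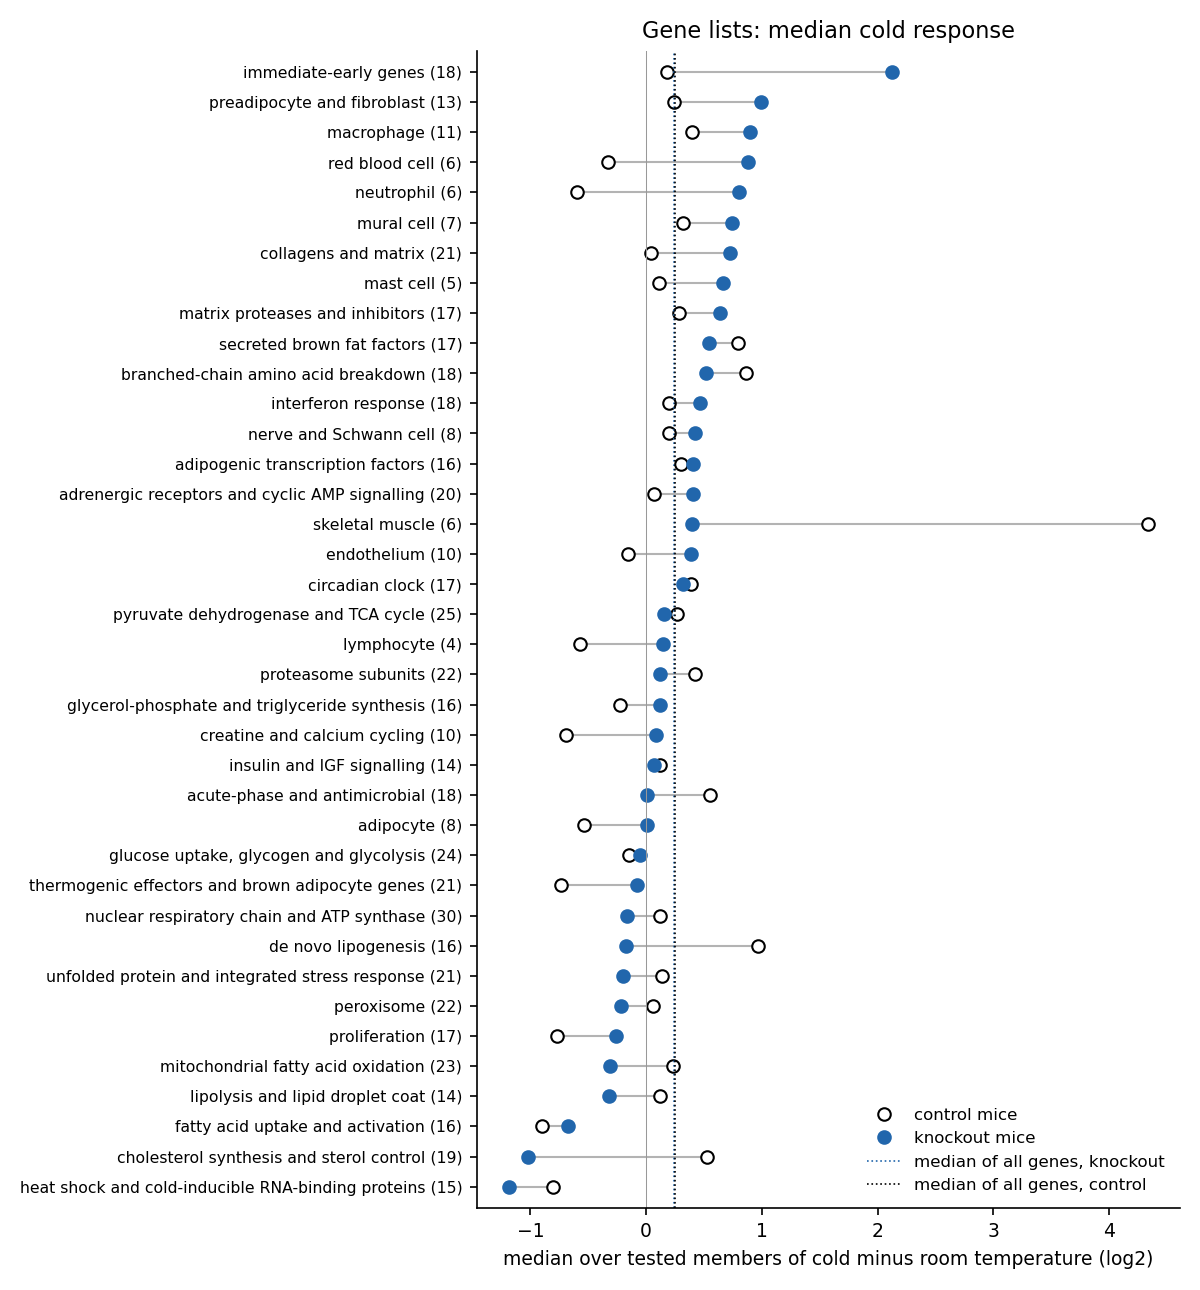
Median cold minus room temperature difference (log2) of the tested members of each gene list in knockout mice (filled) and control mice (open), with the number of members tested in knockout mice in brackets. The dotted lines are the medians of all genes, 0.24 in knockout and 0.25 in control mice; the sterol and heat shock lists have the lowest knockout medians and the immediate-early genes the highest.

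Inflammatory and other lists gave mixed counts. Of 18 acute-phase genes 6 rose and 7 fell, and the responses differed below 0 for 8 and above 0 for 3. Itih4, an inhibitor heavy chain made in the acute phase, read -0.63, 0.29, 0.61 and 1.87 at room temperature and 2.4, 2.15, 2.61 and 2.14 in the cold, a rise of 1.79 (SE 0.45, adjusted p = 0.00712). It fell by 1.35 in control mice and the responses differed by 3.13 (SE 0.61, adjusted p = 0.00603). Cp, ceruloplasmin, rose by 2.41 (SE 0.17, adjusted p = 6.21e-06), and Saa1, serum amyloid A, fell by 1.69 (SE 0.31, adjusted p = 0.00126). Of 18 interferon-response genes 2 rose and 3 fell, and of 17 proliferation genes 1 rose and 4 fell, and 1 rose and 1 fell with median scaling. Of 22 proteasome subunits 6 rose and 2 fell in knockout mice, while 15 rose and none fell in control mice, and the responses differed below 0 for 7 of 22. The knockout counts were 12 and 1 with median scaling, 11 and 2 with quantile normalization, 0 and 1 with normexp and 5 and 5 with the mean over probes. Among 14 genes of insulin and IGF signalling 5 rose and 1 fell. Irs2, the insulin receptor substrate that cyclic AMP induces, read 1.25, 2.52, 2.89 and 2.7 and then 4.76, 4.41, 6.92 and 6.74, a rise of 3.37 (SE 0.64, adjusted p = 0.00152) with slide 8 above slide 7.

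Among genes with several probes all called alike and no overlap of the arrays, Nrip2, an interactor of nuclear receptors, rose furthest. It read -2.02, -2.02, -1.37 and -1.92 at room temperature and 3.02, 3.1, 3.81 and 3.42 in the cold, a rise of 5.17 (SE 0.21, adjusted p = 2.94e-07) with 4.91 by its other probe. It rose by 1.37 in control mice from a level near background, and the responses differed by 3.8 by either probe (SE 0.29, adjusted p = 1.17e-05). Aqp5, a water channel, rose by 5.16 (SE 0.87, adjusted p = 0.000774) from room temperature values as far apart as -5.34 and -1.43. Meg3, an imprinted long noncoding RNA, rose by 4.86 (SE 0.34, adjusted p = 4.69e-06), with 2.12 by its other probe. Sctr, the secretin receptor, through which the gut hormone secretin acts on brown fat, read -1.65, -1.7, -2.04 and -2.58 and then 1.32, 2.12, 2.75 and 2.66, a rise of 4.21 (SE 0.34, adjusted p = 1.09e-05), and its 4 probes ran from 2.67 to 4.21. Coq8a, a kinase-like protein of coenzyme Q synthesis, rose by 3.83 (SE 0.21, adjusted p = 1.21e-06). The others of the highest 12 were Dbp, Lime1, Mapk8ip3, Col20a1, Mmp11, Snhg16 and Pdzk1ip1, at 3.48 to 4.46.

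Of the 12 lowest, Rheb, the GTPase that activates mTORC1, read 0.43, 0.39, 0.37 and 0.29 at room temperature and was above background on no cold array, at least 33.4-fold lower. All tested probes of Rheb are among those lit only on the room temperature mouse arrays, so their agreement is one between such probes. Rab3c, a GTPase of vesicle release, read 3.59, 3.44, 3.86 and 3.94 and then -2.03, -1.9, -2.69 and -2.47, a fall by 5.98 (SE 0.2, adjusted p = 8.46e-08) with 5.99 by its other probe. Strap, a WD-repeat protein, fell by 4.08 (SE 0.14, adjusted p = 8.46e-08), and Rpl13a, a ribosomal protein, by 3.09 (SE 0.12, adjusted p = 1.94e-07), although the 3 probes of Rpl13a ran from -3.09 to -0.56. Pla2g2e, a secreted phospholipase, read 4.66, 5.05, 4.97 and 4.92 and then 2.64, 2.18, 0.16 and 0.32, a fall by 3.58 (SE 0.54, adjusted p = 0.000426). Bpnt1, above background on no cold array, was at least 16.5-fold lower, and the others were Map3k2, Rsph1, Pphln1, Slfn9, Cwc15 and Hsph1, at -4.05 to -2.94.

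Genes with a single probe gave the largest differences. Clic6, of the chloride intracellular channel family, was above background on no array at room temperature, on none of the control arrays and on no culture array, and read -0.79, 0.52, 0.26 and 0.78 on the cold knockout arrays, at least 36.7-fold higher. Dynlrb2, a dynein light chain of ciliated cells, read -0.93, -0.22, -0.19 and 0.6 in the cold and was above background on 1 of 4 room temperature arrays and on 1 of 8 control arrays. Clic3, another member of the Clic family, read -4.19, -5.22, -5.15 and -5.18 and then -0.28, 0.84, -0.1 and 0.62, a rise of 5.2 (SE 0.32, adjusted p = 2.4e-06) against 1.99 in control mice, and the responses differed by 3.21 (SE 0.39, adjusted p = 0.000273). With Nr4a1 and Nr4a3 above, these were the 5 highest. The 5 lowest, Zcrb1, Fgf21, Klf15, Dbt and Rpe, were above background on no cold array, and their bounds ran from at least 50.4-fold to at least 116-fold lower. The probes of Klf15, Dbt and Rpe are among those lit only on the room temperature mouse arrays.

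The largest differences between the genotypes, among genes whose probes were all called alike, ran both ways. Flrt1, a cell-surface protein that binds FGF receptors, read -1.3, -1.94, -2.19 and -2.58 and then -3.26, -1.59, -1.9 and -1.87 in knockout mice, with overlap. Control arrays read -2.17, -2.6, -3.61 and -4.34 and then 1.14, 2.84, 1.41 and 1.05, a rise of 4.79, and the responses differed by -4.94 (SE 0.73, adjusted p = 0.00103), with 3 probes from -4.94 to -3.98. Fgf18, a fibroblast growth factor, went the other way in each genotype. It read -0.54, -0.28, -0.34 and 0.25 and then 2.85, 2.7, 0.92 and 1.26 in knockout mice, a rise of 2.16, and -0.25, 0.55, -0.52 and 0.32 and then -0.71, -1.92, -1.57 and -1.38 in control mice, a fall by 1.42. The responses differed by 3.58 (SE 0.58, adjusted p = 0.00192) and by 3.66 by the other probe.

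Gamt, which makes creatine, the substrate of a thermogenic cycle in fat, read 1.8, 0.76, 0.56 and 1.18 and then 4.18, 4.63, 4.01 and 4.3 in knockout mice, a rise of 3.2 (SE 0.27, adjusted p = 1.31e-05). It rose by 1.14 in control mice, and the responses differed by 2.06 (SE 0.33, adjusted p = 0.00175) and by 1.95 by its other probe. Nap1l5, an imprinted gene, fell by 2.88 (SE 0.24, adjusted p = 1.29e-05) into the range of control mice, whose arrays read -2.61, -2.75, -3.31 and -2.97 at room temperature and -2.45, -3.33, -2.53 and -2.16 in the cold, and the responses differed by -3.17 (SE 0.37, adjusted p = 0.000253). Ptger3, a receptor of prostaglandin E2 that lowers cyclic AMP, fell by 0.72 (SE 0.13, adjusted p = 0.00121) and rose by 1.94 in control mice, and the responses differed by -2.67 (SE 0.5, adjusted p = 0.00444). With the arrays of a slide averaged the calls of Flrt1, Fgf18, Gamt, Nap1l5 and Ptger3 were lost at sizes that did not change (adjusted p = 0.0536 to 0.159). The others of the highest 8 were Nrip2, Map2, Itih4, Dbp, Tinagl1 and Krt36, at 2.36 to 3.8, and of the lowest 8 Espn, Sorcs2, Cdkn2b, Dhx32 and Neurl1a, at -2.38 to -1.92.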

How the data were processed

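Total RNA of each sample was labelled with Cy3 (200 ng, per the labels' protocols) and hybridised to a 1-colour Agilent array of 44397 spots. The deposited intensities had been background-subtracted and spatially detrended by Agilent Feature Extraction 10.7.3.1, per the file headers. From them, log2 of the processed intensity minus the 75th percentile of each array was computed, after the 1377 control spots and flagged spots were left out and the spots of a probe were averaged. Each of 20659 named genes was represented by its brightest probe over all 32 arrays; 12195 probes without a gene name were not used. Genes whose probe stood well above background on 4 or more arrays of a fit were tested with limma 3.58.1 (R 4.3.3, lmFit and eBayes; Benjamini-Hochberg p-values across every gene in the fit, called under 0.05), on the 8 knockout arrays, the 8 control arrays, or all 16 mouse arrays for the difference of the responses. The p-values printed beside an SE are these adjusted values, from limma across all genes, and SE is the standard error of a log2 difference. The number of arrays, 4 a group, limits the precision. A gene below background on every array of a group is given as "at least N-fold": the mean of the bright group against, on each dim array, the higher of its own signal and the lowest signal among probes well above background.

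The members and gene lists were chosen with earlier results of these data known. Genes named in the text are Pparg, Gk and Ucp1, the 12 highest and 12 lowest genes with several probes called alike, the 5 highest and 5 lowest with 1 probe, up to 4 called members of each list and direction, members that were not called, and the 8 highest and 8 lowest of the difference of the responses. Tef, Junb, Jun, Hspe1, Hspd1, Idi1, Insig1, Hmgcs1, Fasn, Dio2, Cebpa, Mb and the genes named for an array that stands apart were chosen after their values were seen. Some list members are counted in their lists but not reported here by name. The fits were tested on simulated data with independent normal noise and no slide effect. The knockout fit recovered 72% of the planted changes of 1 log2 unit and 90% of those of 2. The test of the difference of the responses recovered 48% and 81%, so a gene that was not called may still differ. Alternatives were normexp background (from the median spot signal, since no mean signal was used here), quantile normalization, median scaling, other filters and probe choices, slide and replicate blocks, slide averages and leaving out each array. Promoter sequences are from RefSeq on GRCm38.p6.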

Additional observations from a re-analysis of the deposited data

Results flagged for a closer look

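For 56 of the 140 genes named, the cold response of knockout mice differed from that of control mice by the limma test of the difference itself. Some of these genes were named because of that test or after their values were seen, so this share is partly set by the choice of genes. Of all 14068 genes tested, 1879 (13.4%) were called. Each value is the knockout response minus the control response in log2 units.

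Among clock genes this difference was 2.62 for Dbp, 2.47 for Per3, 2.37 for Nr1d2, 1.77 for Tef and 0.97 for Nr1d1. It was -1.25 for Arntl and -0.77 for Clock. Genes of sterol synthesis and its control had differences of -2.36 for Idi1, -2.23 for Sqle, -2.2 for Insig1, -1.81 for Msmo1 and -0.81 for Hmgcs1. Among genes of fatty acid synthesis the values were -1.97 for Fasn, -1.56 for Scd1 and -1.39 for Pcx. Genes that store, release or oxidise fat had -1.56 for Plin2, -1.42 for Hadha, -1.25 for Lipe, -1.0 for Agpat3, -0.92 for Acads and -0.85 for Pnpla2. Factors of fat cell formation had -1.79 for Klf15, -1.11 for Cebpa and 0.88 for Rxrg. Of immediate-early and stress genes, Nr4a3 had 3.63, Jun 2.2, Bag3 1.13 and Hsph1 -0.89. Matrix and fibroblast genes had 1.26 for Mfap5, 1.16 for Fbn1 and 1.12 for Col1a1, and the acute-phase genes Itih4 and Cp had 3.13 and 1.12. These 2 go against most of the acute-phase list, where 8 of 18 members were called below 0 and 3 above.

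Of the remaining genes with a value above 0, Clic6 had 7.03, Dynlrb2 5.43, Nrip2 3.8, Fgf18 3.58, Map2 3.42, Clic3 3.22, Tinagl1 2.45, Krt36 2.36 and Gamt 2.06. Control arrays were not above background for Clic6, nor for Map2 in the cold, so those sizes are fitted values and not bounds. The probes of Klf15, Pex14 and Ccr2 were above background on no cold array of either genotype, so their values hold the gap between the genotypes at room temperature and measure no difference in the cold. Smaller positive values were 1.84 for Pex14, 1.79 for Meg3, 1.73 for Sctr, 1.11 for Mapk8ip3 and 1.01 for Coq8a. Below 0 were Flrt1 at -4.94, Nap1l5 at -3.17, Ptger3 at -2.66, Espn at -2.38, Sorcs2 at -2.12, Cdkn2b at -1.97, Dhx32 at -1.94, Neurl1a at -1.92 and Ccr2 at -0.91.

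With normexp background correction 23 of these calls were lost, those of Arntl, Cdkn2b, Cebpa, Clock, Col1a1, Coq8a, Cp, Espn, Fbn1, Hsph1, Jun, Klf15, Krt36, Map2, Mapk8ip3, Meg3, Mfap5, Neurl1a, Nr1d1, Nr4a3, Per3, Rxrg and Sctr, and that of Ccr2 turned to 0.02.

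In 15 of 280 combinations of a named gene and a knockout group, 1 of the 4 arrays lay far from the other 3 by a gap test that chance passes in about 1 of 20 groups. On room temperature replicate 1 these were Tnni2 at 4.01, Irf4 at -3.19, Clic3 at -4.19, Dio2 at 3.71 and Espn at -1.4. Room temperature replicate 4 had Isg15 at 4.38, Ifit3 at 2.24 and Coq8a at 3.5. Cfd was at 6.5 on replicate 2 and Nrip2 at -1.37 on replicate 3. On the cold arrays, replicate 4 had Tnni2 at 4.16, Adipoq at 6.84 and Aqp5 at 3.64, replicate 3 had Plin4 at 6.95, and replicate 1 had Neurl1a at 0.78.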

How the results depend on the processing

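With normexp background 5156 genes were called in knockout mice, 466 genes with several probes were called alike and 660 differences of the responses were called; the clock list kept 3 members above 0 in that test, the lipogenic list 3 below 0, and the collagen list had 8 that rose. Pparg was 0.34 and not called. Ciart (0.25) turned in sign, as did the difference of the responses of Ccr2 (0.02) and Elovl3 (2.34, called), and Insig2 turned when its probes were averaged (-0.48). With the arrays of a slide averaged, 35 differences of the responses were called and none of the clock, sterol or lipogenic lists (0 each), 5 immediate-early genes and 9 collagens rose, and Ucp1 (-1.03) lost its call; this leaves 2 values a group. Without single arrays the differences called ran from 1240 (without room temperature knockout replicate 1) to 2199. The immediate-early genes that rose ran from 5 (without room temperature replicate 1 or 2, or cold replicate 3 or 4) to 11, and the collagens from 9 (without room temperature replicate 1) to 14. The lipogenic genes below 0 ran from 3 (without room temperature knockout replicate 1 or 2, cold knockout replicate 3, or control replicate 3 or 4 of either temperature) to 10 (without cold control replicate 2).

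Of the 119 named genes called in knockout mice 104 kept direction and call under all alternatives run, and of the 56 called in the difference of the responses 5 did, 51 having lost the call with averaged slides, 23 with normexp (and Ccr2 turned) and 1 to 11 without single arrays, most without room temperature knockout replicate 1. The replicate numbers do not pair the arrays (residual correlations 0.013, 0.079, 0.006 and 0.157 for the same number), and with the replicate block 8965 genes were called in knockout mice. The signal over background limits genes such as Fos, seen above background on 1 room temperature array.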

Other observations

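The E1A spike-in control probes of the array were set against the 75th percentile of each array. On the 8 of 10 such probes above background on all 16 mouse arrays, the cold knockout arrays were higher than the room temperature knockout arrays by a median of 1.42 log2 units (range 0.57 to 1.87). In control mice the median was 0.88 (range -0.24 to 1.31).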
